A study of Mus musculus with 2 samples.

Results

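Target genes of the transcription factor p53, namely Cdkn1a, Ccng1, Phlda3, Mdm2, Eda2r, Sesn1, Bbc3, Zmat3, Trp53inp1 and Bax, were followed through the cell classes of the embryonic mouse eye. They are 10 of the 31053 genes in the count matrices and were found by their gene symbols. The set was drawn up with the mutant-to-control values of retinal pigment epithelium (RPE) cells known, so those values describe the genes and are not tested here. What the choice did not use is how the same genes lie in neurons, progenitors, endothelium and mesenchyme, and which of them share single cells there. Sharing of single cells within mutant RPE-like cells is not independent of the choice, since much of those values lay in few cells.

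The eyes were taken at embryonic day e15.5 from Myrf fl/fl mice (control) and from Rx>cre Myrf fl/fl mice (mutant). Myrf encodes a transcription factor of developing RPE, both groups carry the floxed allele on both chromosomes, and Rx regulatory sequence drives Cre in the early eye field, from which both neural retina and RPE arise. Each genotype was 1 droplet (10x 3′) single-cell library made from 3 pooled eye cups, with cornea, lens and optic nerve removed. There is therefore no spread between animals, and no p-value is given for any comparison. Ranges in parentheses are exact 95% intervals that cover counting error only; unique transcript counts (UMIs) of a gene often lie together in few cells, which makes these intervals too narrow.

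Protein p53 is held low in unstressed cells, largely because Mdm2, itself a p53 target, marks it for destruction. Damage or other stress stabilises it, and it then binds response elements near its targets, which stop the cell cycle, lower growth signalling, limit oxidative damage or start mitochondrial cell death. In embryos, raised p53 activity is known to cause cell death and malformations, those of the eye among them.

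The regions before 3 start sites are printed because they hold the closest matches among these genes to the p53 response element, the sequence that links the genes to one another. The windows (250 bases before to 50 after each RefSeq start, GRCm38.p6) were scanned for the 20-base p53 consensus, with up to 1 base between its repeats; the consensus reads alike on both strands. Capitals mark the best match, with 20 flanking bases on either side. The Cdkn1a stretch, flanks included, lies at chr17:29090908-29090967 on the + strand. Its match begins 51 bases before the upstream one of 2 Cdkn1a starts and fits 19 of 20 positions. At the other Cdkn1a start the best match fits 13. The Ccng1 stretch with its flanks lies at chr11:40755442-40755501 on the − strand, and its match begins 195 bases before the start and fits 19 of 20. The Bax stretch with its flanks lies at chr7:45467059-45467119 on the − strand, and its match begins 201 bases before the start and fits 18 of 20 with 1 base between the repeats.
Cdkn1a: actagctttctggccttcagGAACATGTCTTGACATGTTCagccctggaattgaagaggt
Ccng1: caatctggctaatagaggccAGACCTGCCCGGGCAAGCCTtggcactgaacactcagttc
Bax: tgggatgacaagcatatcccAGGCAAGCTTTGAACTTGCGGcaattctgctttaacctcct
Of all 32851 windows in the table, 0.0883% reached 19 matched positions, 0.551% reached 18 and 2.28% reached 17. The best match over the starts of a gene was 17 for Sesn1 and Bbc3, 15 for Phlda3, which 19.2% of all windows reach, and 11 for Mdm2 and Eda2r. Other starts had 12 for Sesn1, and 14 and 12 for Bbc3. Zmat3 and Trp53inp1 had no entry. A match is a description of letters only, and response elements outside these windows were not looked for.

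After filtering, 11576 control and 12623 mutant cells were kept, and 25 of their 33 clusters could be named, as 15 classes. The control library held 371 RPE-like cells and the mutant library 206, which is 3.205% and 1.632% of kept cells. Neurons here means 3 classes as a group, photoreceptor precursor-like, retinal ganglion cell-like and amacrine or horizontal cell-like, with 1200 control and 1661 mutant cells. RPE-like cells carried the pigment gene Pmel at 7719 and 7612 CPM, the UMIs of a gene in 1000000 UMIs of the class, and the melanocyte gene Pax3 in 0 and 1 UMIs. Myrf was at 76.1 CPM (67.7 to 85.4) in control and 30.3 CPM (22.98 to 39.1) in mutant RPE-like cells; 3′ counting does not read a deleted internal exon, so this checks the label only in part. The libraries differed in sex: a Y-linked UMI was found in 0.0259% of control and 41.8% of mutant cells. Eda2r is X-linked. A total of 69 barcodes occurred in both libraries. RPE-like cells were shallower in the mutant, with a median of 3587 UMIs against 6940.

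Droplet libraries also hold free RNA, and erythroid-like cells, which should lack most of these transcripts, are given as a low reference for each gene. Their UMIs were not evenly spread over cells: 1 control erythroid-like cell held 5 of the 13 Cdkn1a UMIs of its class, and 1 mutant cell 4 of 8. The 10 genes summed to 28.6 CPM in control and 26.3 CPM in mutant erythroid-like cells, whose median depth was 16838 and 16766.5 UMIs. All other named classes held 269 to 557 CPM. Single genes in erythroid-like cells ranged from 0 CPM (Eda2r) to 14.7 CPM (Bax). A 3′ library gives UMIs per gene and not per length, so the text compares each gene between classes and not one gene with another.

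The 10 genes did not follow a single pattern across the eye. Bax, which opens the mitochondrial membrane in apoptosis, made up 67.4% of their summed UMIs in control RPE-like cells and 52.6% in mutant ones, so sums are also given without it. With Bax, the sum was 552 CPM in control neurons, 401 in RPE-like cells, 379 in endothelium-like, 357 in periocular mesenchyme-like, 317 in neurogenic progenitor-like and 280 in retinal progenitor-like cells. Without Bax, control RPE-like cells, at 130 CPM (119 to 142), were close to retinal progenitors at 116 CPM and neurogenic progenitors at 127 CPM, and well below neurons at 255 CPM. Mutant RPE-like cells had 256 CPM (233 to 279) and mutant neurons 237 CPM, but 15 of the 206 mutant RPE-like cells, those with a Cdkn1a UMI, held 276 of the 490 UMIs behind the first value. The plot of levels by class shows each gene on its own scale.

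**Figure D1:**
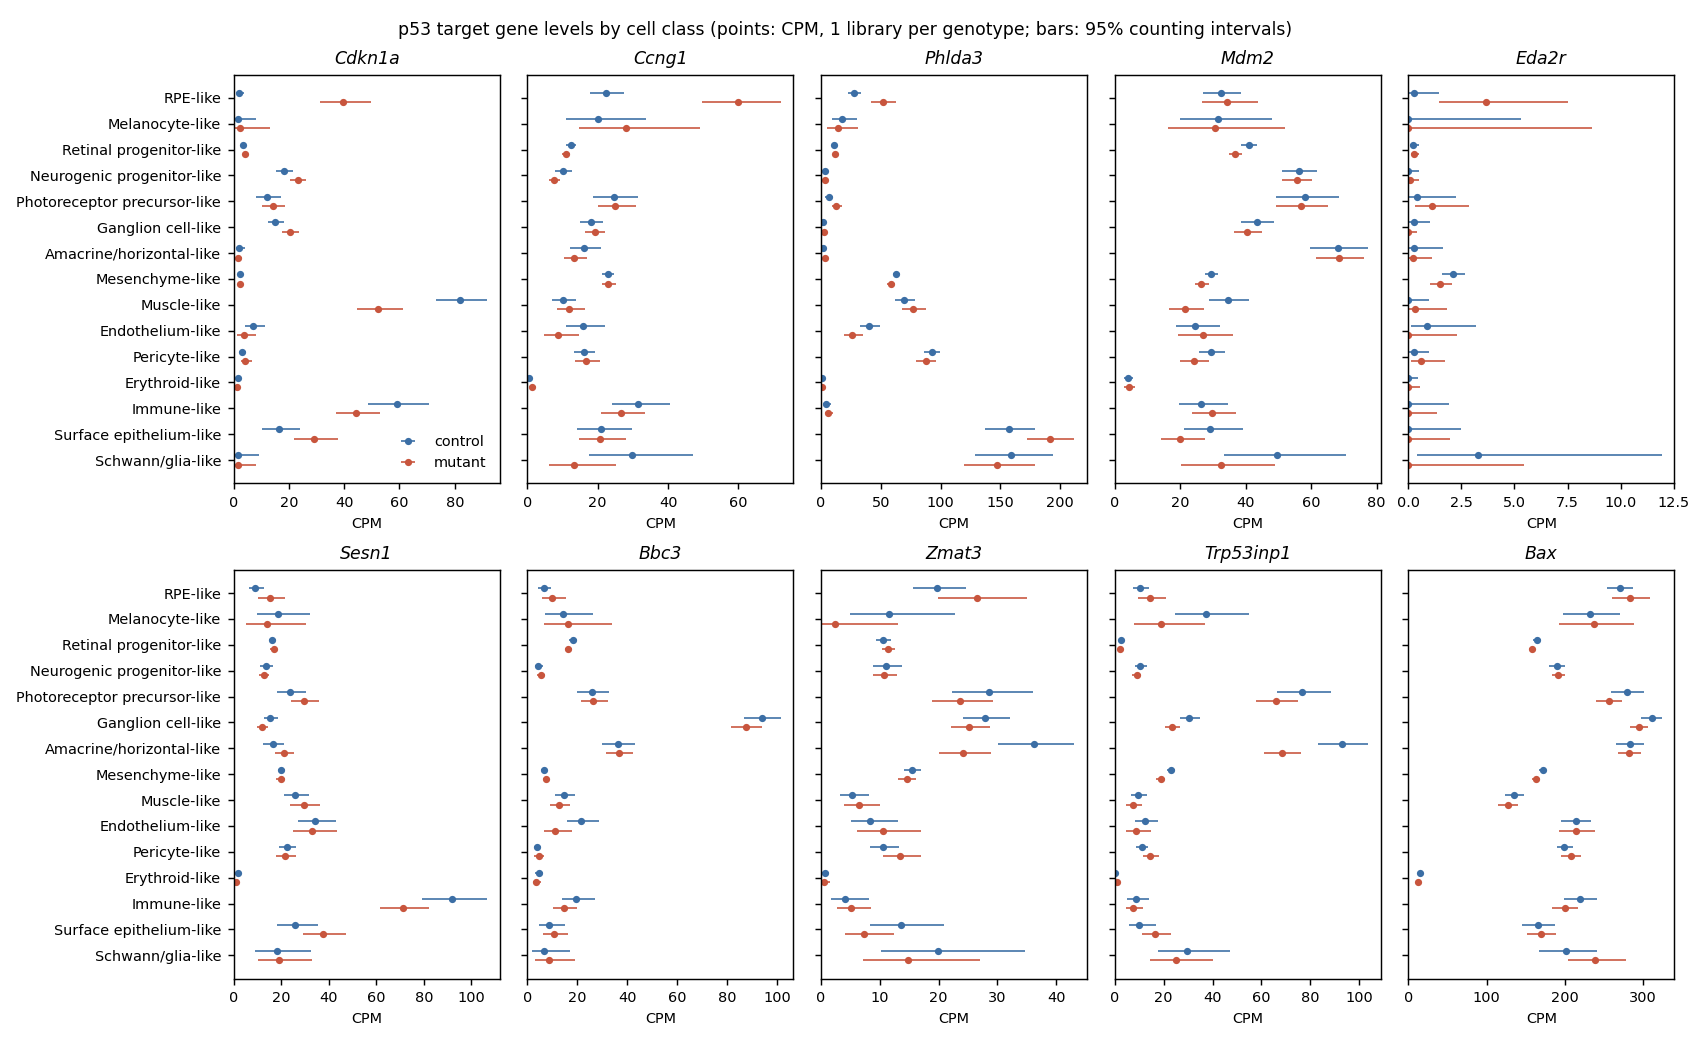
Level of each of the 10 genes in CPM (linear axis from 0, a different scale for each gene) in 15 cell classes; blue points are the control library, red points the mutant library, bars the 95% counting intervals. Cdkn1a is highest in muscle-like and immune-like cells in both libraries, Phlda3 in surface epithelium-like and Schwann/glia-like cells, and Bbc3 in ganglion cell-like cells; the wide gap between libraries in RPE-like cells is seen for Cdkn1a (1.82 and 39.6 CPM) and Ccng1 (22.3 and 60.0 CPM).

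Cdkn1a (chr17:29090976-29100727, + strand, GRCm38; all 10 genes are protein-coding) encodes p21, an inhibitor of cyclin-dependent kinases that halts the cell cycle. Its level was 82.0 CPM (73.2 to 91.7) in control muscle-like cells and 59.0 CPM (48.6 to 70.8) in control immune-like cells, the highest of the classes. Within the retina it was 18.2 CPM in control neurogenic progenitor-like cells, 15.03 in ganglion cell-like and 12.1 in photoreceptor precursor-like cells, whose intervals overlap. Retinal progenitor-like cells held 3.48 CPM (2.80 to 4.27), endothelium-like 7.05 (4.03 to 11.5) and periocular mesenchyme-like 2.42 (1.90 to 3.04). Control RPE-like cells, at 1.82 CPM (0.731 to 3.75), could not be told from erythroid-like cells at 1.60 CPM (0.851 to 2.73). By cells, a Cdkn1a UMI was present in 1.35% of RPE-like cells and 1.58% of erythroid-like cells of the control, whereas 13.1% of neurogenic progenitor-like and 14.2% of ganglion cell-like control cells had one. These shares are not at a common depth: the median UMIs of these classes, in the same order, were 6940, 16838, 10360 and 16550. Of the 5 control RPE-like cells with a Cdkn1a UMI, 3 also held Ccng1 and Phlda3.

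In mutant RPE-like cells Cdkn1a stood at 39.6 CPM (31.2 to 49.6), from 76 UMIs against 7 in the control, a ratio of 21.8 (10.1 to 56.0), whose denominator is the control level that could not be told from erythroid-like cells. The number of cells behind this is small: 15 of 206 mutant and 5 of 371 control RPE-like cells had a Cdkn1a UMI, and 75.0% of the mutant UMIs came from 5 cells. In the other classes the libraries were far closer. The mutant-to-control ratio was 1.27 (1.03 to 1.58) in neurogenic progenitor-like cells, 1.35 (1.06 to 1.74) in ganglion cell-like cells, 1.22 (0.939 to 1.60) in retinal progenitor-like cells and 0.639 (0.525 to 0.775) in muscle-like cells. One mutant ganglion cell-like cell alone held 36 Cdkn1a UMIs.

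Ccng1 (chr11:40748552-40755311, − strand) encodes cyclin G1, a p53-induced cyclin that acts back on the Mdm2 and p53 pair. Its mean over the 2 libraries was highest in RPE-like cells, through the mutant alone: 22.3 CPM (17.9 to 27.6) in the control lay near immune-like (31.6), photoreceptor precursor-like (24.5) and mesenchyme-like (22.9) cells, while 60.0 CPM (49.5 to 72.0) in the mutant did not overlap the interval of any other mutant class. The UMIs were 86 and 115, a ratio of 2.68 (2.01 to 3.59). Progenitors held less, with 12.4 CPM in control retinal progenitor-like and 10.1 in neurogenic progenitor-like cells, and the mutant values there were 10.9 and 7.58. In the control 17.0% of RPE-like cells (63 cells, median depth 6940 UMIs) had Ccng1, and in the mutant 18.4% did (38 cells, median depth 3587 UMIs). With each cell thinned to 2000 UMIs the shares were 4.12% (2.01 to 7.41) and 8.15% (3.99 to 14.4), and the intervals overlap. Of the mutant UMIs, 53.9% came from 5 cells.

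Mdm2 (chr10:117688875-117710758, − strand), the ubiquitin ligase that closes the feedback loop on p53, was highest in amacrine or horizontal cell-like cells. Control levels were 68.3 CPM in amacrine or horizontal cell-like, 58.3 in photoreceptor precursor-like, 56.3 in neurogenic progenitor-like, 49.6 (33.4 to 70.8) in Schwann cell precursor or glia-like and 43.4 in ganglion cell-like cells, against 41.0 in retinal progenitor-like, 29.5 in mesenchyme-like and 24.7 in endothelium-like cells. In RPE-like cells it was 32.5 CPM (27.0 to 38.7) in the control and 34.4 CPM (26.6 to 43.8) in the mutant, a ratio of 1.06 (0.775 to 1.44). Retinal progenitor-like cells were slightly lower in the mutant, 36.9 CPM, a ratio of 0.899 (0.829 to 0.9751).

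Bax (chr7:45461697-45466898, − strand) was found in every class. Outside erythroid-like cells, control levels ran from 136 CPM (124 to 148) in muscle-like to 311 CPM (298 to 324) in ganglion cell-like cells. RPE-like cells were at 270 CPM (254 to 287) in the control and 284 CPM (260 to 309) in the mutant, a ratio of 1.05 (0.945 to 1.17), and could not be told from photoreceptor precursor-like or amacrine or horizontal cell-like cells by their intervals. The annotation places another gene, Gm45808, on the same strand over Bax, so reads of the pair cannot be told apart there.

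Bbc3 (PUMA; chr7:16308393-16318205, + strand), which frees Bax to act, was highest in a single retinal class. Ganglion cell-like cells held 94.1 CPM (87.0 to 102) in the control and 87.8 CPM (81.8 to 94.2) in the mutant, and 67.4% and 69.4% of them had a UMI. The next class, amacrine or horizontal cell-like, held 36.2 CPM (30.1 to 43.1), and retinal progenitor-like cells 18.3. Neurogenic progenitor-like cells, at 4.42 CPM (3.05 to 6.21), were no higher than erythroid-like cells at 4.55 CPM (3.201 to 6.27), and control RPE-like cells, at 6.50 CPM (4.20 to 9.59), overlapped that level. The mutant RPE-like value was 9.91 CPM (5.97 to 15.48) from 19 UMIs, a ratio of 1.53 (0.794 to 2.88).

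Phlda3 (chr1:135766119-135769136, + strand), which competes with Akt for membrane lipid and so lowers survival signalling, was highest outside the neural retina. It was at 159 CPM in Schwann cell precursor or glia-like, 157 in surface epithelium-like, 92.5 in pericyte-like and 63.0 in mesenchyme-like control cells. Endothelium-like cells held 40.1 CPM and retinal progenitor-like cells 10.6, while ganglion cell-like cells held 1.88 CPM (1.00 to 3.21). RPE-like cells were in the middle of this order, at 27.8 CPM (22.8 to 33.6) in the control and 51.6 CPM (42.0 to 62.9) in the mutant, with 107 and 99 UMIs and a ratio of 1.86 (1.40 to 2.46).

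Eda2r (chrX:97333840-97377216, − strand), a receptor for an ectodysplasin isoform, was the scarcest of the set. Mesenchyme-like cells had 63 control and 34 mutant UMIs, 2.09 and 1.48 CPM, and no other class had more than 10 in a library. RPE-like cells had 1 control and 7 mutant UMIs, in 1 and 5 cells, a ratio of 14.05 with an interval of 1.81 to 633. No Eda2r UMI was found in melanocyte-like, immune-like, erythroid-like or surface epithelium-like cells, which in control erythroid-like cells allows up to 0.369 CPM (3 counts).

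Sesn1 (chr10:41809935-41908424, + strand), a sestrin that restrains mTORC1 under stress, was highest in immune-like cells, at 92.1 CPM (79.1 to 107) in the control. Endothelium-like cells held 34.4 CPM (27.2 to 42.9) in the control and 33.1 in the mutant, and surface epithelium-like cells 25.7 and 37.5, with overlapping intervals in each library. Control RPE-like cells had 9.09 CPM (6.33 to 12.6), below every named class but erythroid-like, and mutant RPE-like cells had 15.1 CPM (10.1 to 21.7), a ratio of 1.66 (0.981 to 2.80).

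Trp53inp1 (chr4:11156431-11174379, + strand), a stress-induced nuclear protein that aids p53, and Zmat3 (chr3:32334792-32366014, − strand), a zinc-finger protein that binds RNA, both had their highest control level in amacrine or horizontal cell-like cells. Trp53inp1 was at 92.9 CPM in amacrine or horizontal cell-like and 76.8 in photoreceptor precursor-like control cells, against 37.5 in melanocyte-like, 30.5 in ganglion cell-like, 23.1 in mesenchyme-like, 10.5 in neurogenic progenitor-like and 2.68 in retinal progenitor-like cells. Zmat3 was at 36.2 CPM in amacrine or horizontal cell-like, 28.5 in photoreceptor precursor-like and 27.9 in ganglion cell-like control cells, with overlapping intervals. In the mutant the highest Zmat3 value was that of RPE-like cells, with an interval that overlaps those of the 3 neuron classes. RPE-like Trp53inp1 was 10.4 CPM (7.43 to 14.2) and 14.6 CPM (9.71 to 21.1), and RPE-like Zmat3 was 19.7 CPM (15.6 to 24.7) and 26.6 CPM (19.8 to 35.0). The control and mutant intervals of each overlap. The log2 ratio of Trp53inp1, 0.49 over all RPE-like cells, depended on the cells kept. At a mitochondrial limit of 5% it was 3.14 (1.32 to 5.57), from 18 UMIs, fewer than the 20 asked of a gene elsewhere. The median mitochondrial share of RPE-like cells was 5.68% in the control and 5.05% in the mutant, so this limit left most of them out. Without the 5 richest cells of each class and library the log2 ratio was 0.06, with an interval that spans 0. Both genes were lower in mutant neurons, with ratios of 0.797 (0.719 to 0.883) for Trp53inp1 and 0.813 (0.708 to 0.935) for Zmat3, and the amacrine or horizontal cell-like ratios were 0.736 (0.629 to 0.860) and 0.667 (0.515 to 0.864).

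Over 25 class-by-library points with at least 50 cells, erythroid-like cells left out, the levels of Zmat3 and Bax had a Pearson r of 0.757 and those of Zmat3 and Trp53inp1 an r of 0.733. Phlda3 and Mdm2 had an r of -0.726. Cdkn1a went with neither Ccng1 (r of 0.187) nor Phlda3 (r of 0.0661), although of the genes with at least 20 UMIs in RPE-like cells these 3 had the largest mutant-to-control ratios there. The points share their libraries and differ in depth, and the values are descriptions.

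Between the genotypes, 9 of the 10 genes had at least 20 UMIs in RPE-like cells, and 5 of them (Cdkn1a, Ccng1, Phlda3, Sesn1 and Bbc3) were at least 1.5-fold higher in the mutant, where 5.03% of all 11035 genes tested were. None was 1.5-fold lower, where 8.68% were. Their median log2 ratio was 0.61, with -0.07 over all genes. Nothing is read from these counts, since the genes were chosen on this contrast. The interval lay above 1 for 3 of the 9, Cdkn1a, Ccng1 and Phlda3, and nothing is read from this count either. The share of all genes with such an interval is not given here. For Phlda3 this was lost at Leiden resolution 2.0, where its log2 ratio was 0.51 (-0.17 to 1.18).

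The other classes were not used in the choice. In retinal progenitor-like cells 0 of 9 genes were 1.5-fold higher and 0 lower, against 3.32% and 2.15% of all genes, and the median log2 ratio was -0.06. Neurogenic progenitor-like cells gave 0 and 0 of 9, against 3.49% and 3.24%, with a median of -0.05. The summed level without Bax was 116 CPM in control and 111 CPM in mutant retinal progenitors, and 127 CPM in neurogenic progenitors of both libraries. Neurons gave 1 higher of 9, against 3.36%, and 0 lower, against 3.09%, with a median of -0.03. The single gene was Phlda3, with 36 and 81 UMIs, 2.80 and 4.64 CPM and a ratio of 1.66 (1.11 to 2.53), and its ratio in photoreceptor precursor-like cells was 2.01 (1.12 to 3.81).

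Outside the retina, mesenchyme-like cells gave 0 higher and 0 lower of 10 genes, against 5.69% and 3.07% of all genes, with a median log2 ratio of -0.10. Endothelium-like cells gave lower values in the mutant, with 0 of 9 higher, against 6.28%, and 4 lower, against 6.76%, and a median of -0.50. The 4 were Cdkn1a (16 and 6 UMIs), Ccng1 (36 and 14), Phlda3 (91 and 42) and Bbc3 (49 and 18). Only Phlda3, at a ratio of 0.654 (0.443 to 0.953), and Bbc3, at 0.521 (0.286 to 0.910), had intervals below 1, and the class held 165 control and 126 mutant cells. In the same class dissociation stress genes had a median of -0.36, with 0 of 9 at least 1.5-fold higher and 2 lower. G2 and mitosis genes had a median of 0.41, with 2 of 15 higher and 0 lower. The shares over all genes are again 6.28% and 6.76%. Their part in the lower values was not tested.

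**Figure D2:**
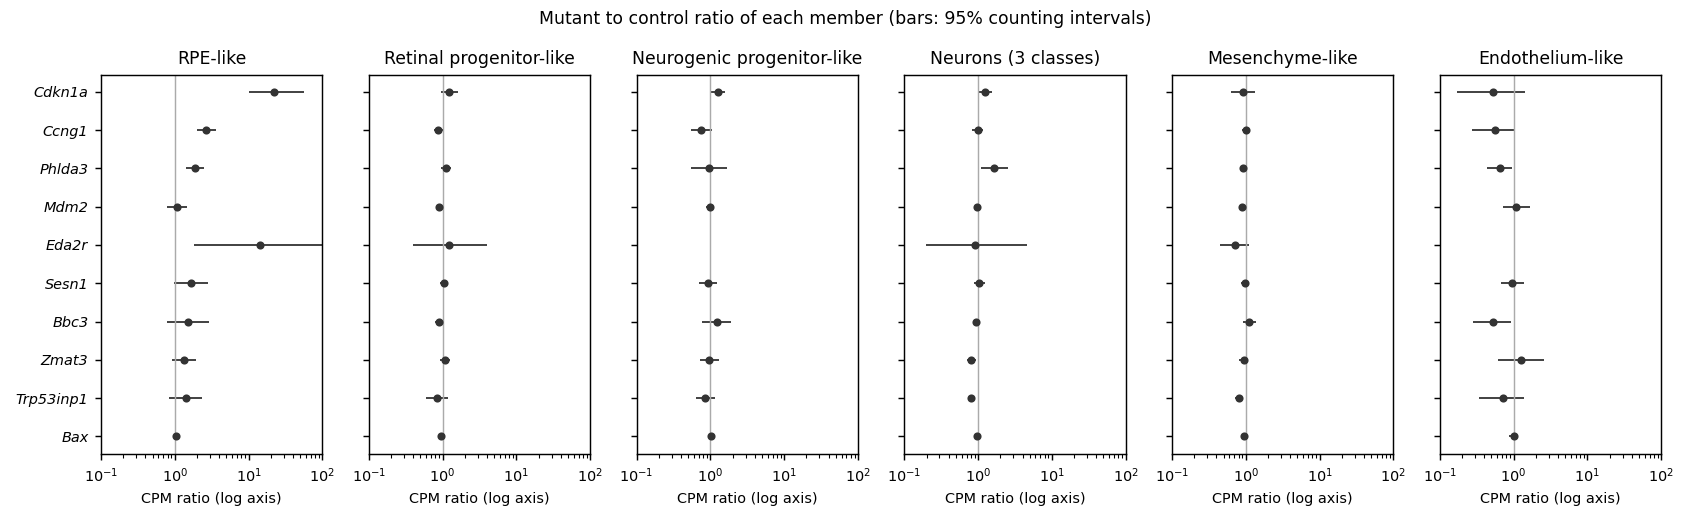
Mutant-to-control ratio of CPM (log axis) for each gene in 6 groups of cells; points are ratios, bars 95% counting intervals, the grey line is 1, and bars that reach the edge run past the axis limits. RPE-like cells show Cdkn1a at 21.8, Ccng1 at 2.68 and Phlda3 at 1.86, while in retinal progenitor-like, neurogenic progenitor-like and mesenchyme-like cells the points with at least 20 UMIs lie within 1.5-fold of 1. A gene with no UMI in 1 of the libraries has no point.

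Cell by cell, much of the mutant RPE-like Cdkn1a, Ccng1 and Phlda3 lay in a small group of cells. The 15 mutant cells with a Cdkn1a UMI contained 276 of the 490 UMIs of the 9 genes other than Bax, or 56.3%, with 11.8% of the UMIs of all genes in the class. These cells were picked for Cdkn1a, so all 76 of its UMIs lie in them by selection; for the 8 genes without Bax and Cdkn1a they contained 200 of 414 UMIs, or 48.3%. In the control, the 5 such cells contained 43 of 502, or 8.57%, with 2.66% of all UMIs, and without Cdkn1a 36 of 495, or 7.27%. The richest mutant cell, of 36382 UMIs, held 21 UMIs of Cdkn1a, 23 of Ccng1, 21 of Phlda3, 6 of Trp53inp1, 5 of Bbc3, 4 of Mdm2, 4 of Zmat3, 2 of Eda2r and 37 of Bax. The next, of 21606 UMIs, held 8, 8 and 4 of Cdkn1a, Ccng1 and Phlda3, and one of 21487 UMIs held 16, 6 and 4.

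At least 10 UMIs of the 9 genes were found in 9 mutant and 4 control RPE-like cells. Of the 9 mutant cells, 8 held at least 2 Cdkn1a UMIs, with totals from 15 to 86, and the highest control cell, of 26598 UMIs, reached 19 with 1 of Cdkn1a. Per UMI, 6 of 99 mutant and 0 of 217 control RPE-like cells of at least 4000 UMIs were at or above 1000 CPM for the 9 genes together, both limits being set after the values were seen. Photoreceptor precursor-like cells had 6 of 282 control and 11 of 422 mutant cells past that level, so it was not particular to RPE-like cells or to the mutant.

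**Figure D3:**
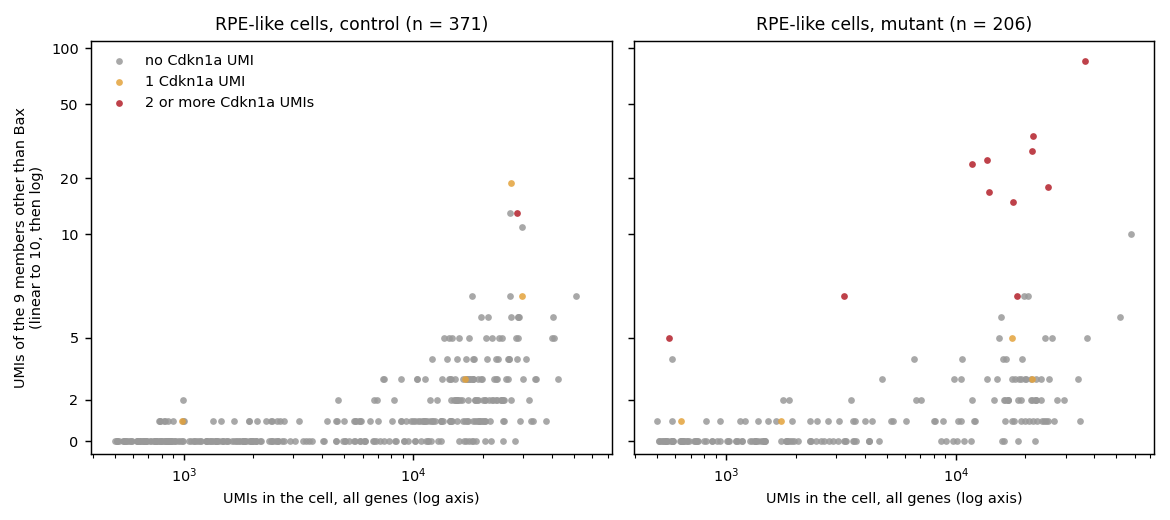
Each point is an RPE-like cell; the x axis is its UMIs over all genes (log axis), the y axis its UMIs of the 9 genes other than Bax (linear to 10, then log), and colour marks 0, 1 or at least 2 Cdkn1a UMIs. In the mutant (206 cells), 8 cells with at least 2 Cdkn1a UMIs hold 15 to 86 UMIs of the 9 genes, and in the control (371 cells) the highest cell holds 19.

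The mutant cells with a Cdkn1a UMI were deeper than the rest, with a median of 17570 UMIs against 3325, so levels are compared per UMI. Ccng1 was at 355 CPM in them and 20.7 CPM in the other mutant RPE-like cells, a ratio of 17.2 (11.4 to 26.3), and the latter value is close to the 22.3 CPM of the control class. Phlda3 was at 240 against 26.6 CPM, a ratio of 9.01 (5.95 to 13.7), where the control class had 27.8. Zmat3 gave 5.70 (3.12 to 10.3), Trp53inp1 5.63 (2.43 to 12.7) and Bbc3 10.3 (3.78 to 29.6), from 11 against 8 UMIs.

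Bax was 1.80 times higher (1.44 to 2.23), and 2 genes did not separate the cells: Mdm2 had a ratio of 1.67 (0.813 to 3.16) and Sesn1 one of 0.867 (0.168 to 2.83). Mutant RPE-like cells without Cdkn1a had 15.4 CPM of Sesn1, those with it had 13.3 CPM (3 UMIs), and the control class had 9.09. Of the 7 Eda2r UMIs, 6 lay in Cdkn1a cells. Without the richest cell the ratios were 14.6 for Ccng1, 6.57 for Phlda3, 5.56 for Zmat3, 3.36 for Trp53inp1, 6.72 for Bbc3 and 1.39 for Bax. In the control, the 5 Cdkn1a cells gave 3.75 (1.57 to 7.77) for Ccng1, 5.06 (2.60 to 9.08) for Phlda3 and 1.21 (0.324 to 3.18) for Mdm2.

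Ranked by this ratio among 8297 genes of mutant RPE-like cells, Ccng1 held rank 2, Phlda3 rank 8, Zmat3 rank 18 and Trp53inp1 rank 19, while Bax held rank 787, Mdm2 rank 1038 and Sesn1 rank 5403. The 10 genes were chosen on the mutant RPE-like values, much of which lay in these cells, so their ranks are a description only. The other genes of ranks 1 to 7 were Hpgd, Ddit4l, Ttr, Wnt16, Gas2 and Ass1. Of their UMIs in Cdkn1a cells, a single cell held 93.8% for Hpgd, 93.1% for Gas2, 92.9% for Wnt16, 85.2% for Ttr and 33.3% for Ddit4l, against 28.7% for Ccng1 and 38.9% for Phlda3. Ass1 had 16 UMIs in 6 cells. Of p53 targets outside the set, Gdf15 had rank 10, with a UMI in 3 of the cells and 75.0% of its UMIs in 1, and Sulf2 rank 11, with a UMI in 10 cells and 36.7% of its UMIs in 1. Ckap2, also such a target, had rank 12, and all 22 of its UMIs in these cells lay in 1 cell. These non-members were chosen after their values were seen.

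The 15 cells carried sex transcripts of both kinds: 7 had Xist but no Y-linked UMI, 3 had Y-linked UMIs and no Xist, and 5 had neither. The highest doublet score among them was 0.16. Among cells that had Xist but no Y-linked UMI, Cdkn1a was at 1.76 CPM in 189 control and 52.0 CPM in 42 mutant RPE-like cells, Ccng1 at 23.2 and 65.7 CPM, and Phlda3 at 26.7 and 69.4 CPM. The mutant cells with only Y-linked UMIs, 44 in number, had 33.6, 42.0 and 35.3 CPM of these 3 genes. For these 3 genes the gap between the libraries was at least as large in cells with Xist only as over all RPE-like cells, with the richest mutant cell counted in both. That cell has Xist only, and of the UMIs of the 42 mutant cells it held 21 of 42 for Cdkn1a, 23 of 53 for Ccng1 and 21 of 56 for Phlda3.

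In the other classes these ratios were mostly smaller. The nearest to the RPE-like pattern were photoreceptor precursor-like cells. There, the 20 mutant Cdkn1a cells had a ratio to other cells of 12.1 (6.25 to 22.8) for Phlda3, 4.86 (2.63 to 8.48) for Zmat3, 3.22 (1.60 to 5.96) for Ccng1 and 3.04 (2.00 to 4.47) for Trp53inp1. The 13 control ones had 10.2 (2.77 to 31.7) for Phlda3 and 6.84 (3.56 to 12.4) for Bbc3, with 1.16 (0.232 to 3.55) for Ccng1.

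Retinal progenitor-like Cdkn1a cells had smaller ratios. In the mutant they were 2.74 (1.92 to 3.81) for Phlda3, 2.23 (1.49 to 3.25) for Ccng1 and 3.40 (1.49 to 6.82) for Trp53inp1 over 115 cells. In the control they were 1.21 (0.599 to 2.21), 1.32 (0.714 to 2.25) and 1.31 (0.265 to 4.01) over 74 cells. Without the richest cell the mutant Phlda3 and Ccng1 ratios were 1.94 and 1.83.

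Pericyte-like Cdkn1a cells had ratios of 3.445 (control) and 3.202 (mutant) for Ccng1 and 1.79 and 1.68 for Phlda3, all with intervals above 1. In ganglion cell-like and neurogenic progenitor-like cells, where Cdkn1a was common, its cells differed little from the others in Ccng1 and Mdm2. Ganglion cell-like Cdkn1a cells (60 control, 100 mutant) had Ccng1 ratios of 0.817 and 0.986 and Mdm2 ratios of 0.834 and 0.853, all with intervals that span 1. Neurogenic progenitor-like Cdkn1a cells (88 and 150) had Ccng1 ratios of 1.36 and 0.873, again spanning 1. In muscle-like cells, with 49 in each library, the Phlda3 ratios were 0.333 (0.224 to 0.481) in the control and 0.821 (0.610 to 1.09) in the mutant, where Cdkn1a cells thus held less Phlda3 or could not be told apart. Endothelium-like cells had only 9 and 5 Cdkn1a cells, with a control Phlda3 ratio of 2.19 (1.26 to 3.65) and a control Zmat3 ratio of 5.66 (1.98 to 15.46). Over the classes and libraries outside RPE-like cells, the Ccng1 interval lay above 1 in 4 of 21, that of Zmat3 in 4 of 17, that of Trp53inp1 in 6 of 19, that of Bax in 9 of 23, that of Mdm2 in 3 of 23 and that of Sesn1 in 0 of 22, with 0 below 1 for each of these. Phlda3 went both ways, above 1 in 7 and below 1 in 4 of 16, and Bbc3 was above in 6 and below in 1 of 21. Not every class and library is in these counts: the highest Zmat3 ratio counted was 4.86, so the endothelium-like 5.66 is left out.

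**Figure D4:**
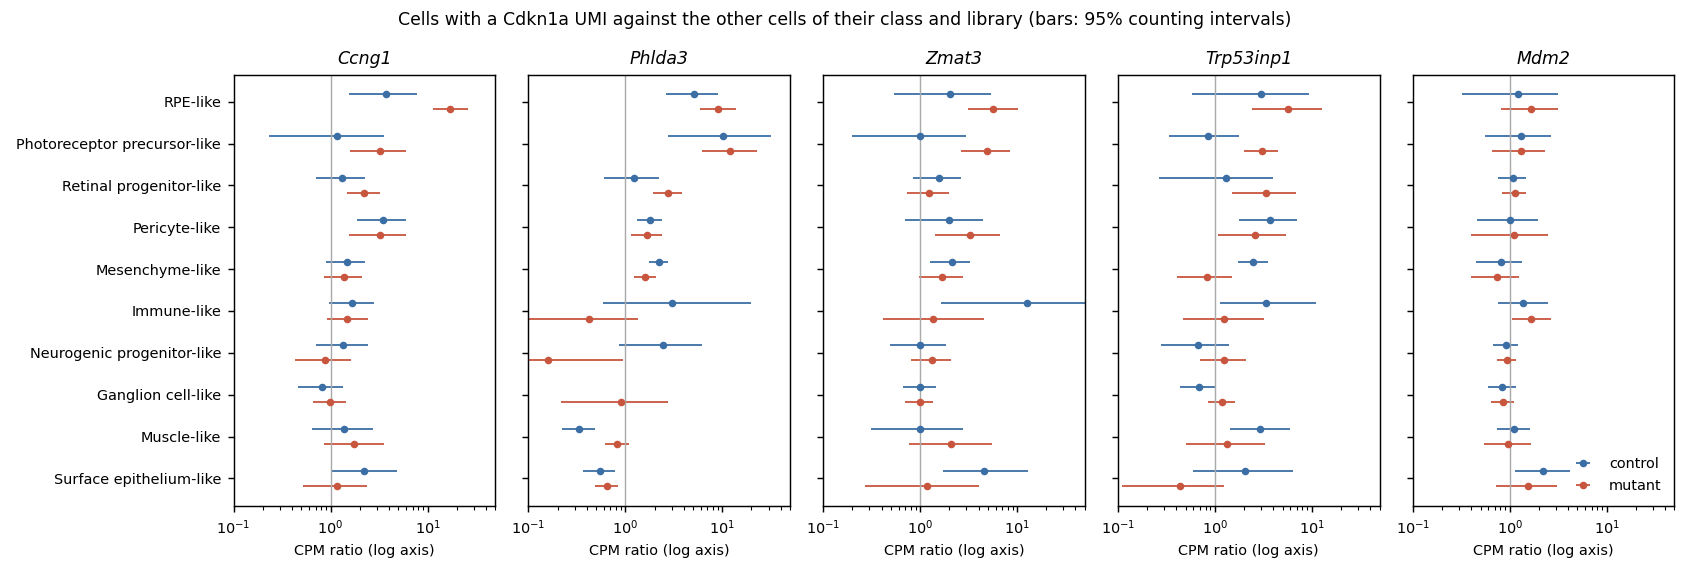
Ratio of CPM (log axis) in cells with a Cdkn1a UMI to CPM in the other cells of the same class and library, for 5 genes and 10 classes; blue is control, red mutant, bars are 95% counting intervals, the grey line is 1, and bars that reach the edge run past the axis limits. In mutant RPE-like cells Ccng1 stands at 17.2 and Phlda3 at 9.01, Mdm2 at 1.67 has an interval that spans 1, and ganglion cell-like points for Ccng1 lie near 1. A set of cells with no UMI of the gene has no point.

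Cells with a UMI of all 3 of Cdkn1a, Ccng1 and Phlda3, a combination chosen after the values were seen, numbered 9 of the 206 mutant RPE-like cells, or 4.37% (2.02 to 8.13). The control had 3 of 371. If the genes were spread over cells by depth alone, with each in as many cells as observed, the numbers would be 3.04 and 0.598. Photoreceptor precursor-like cells had 6 mutant and 1 control such cells, where depth alone gives 0.458 and 0.166. All cells outside the RPE-like class, those of unnamed clusters included, held 46 mutant and 43 control such cells, where it gives 38.8 and 33.6.

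To compare classes at one depth, each cell was thinned to 2000 UMIs, which left out as too shallow 124 of the 371 RPE-like cells in the control and 82 of the 206 in the mutant. At least 3 of the 10 genes were then found in 0.931% (0.139 to 3.08) of RPE-like cells of the control and 5.10% (1.95 to 10.6) of those of the mutant, and the intervals overlap. Unthinned, the shares were 25.9% and 27.7%. Neurons had 4.22% (3.14 to 5.54) and 3.93% (3.04 to 4.99), whose intervals overlap that of the mutant RPE-like share. Mesenchyme-like cells had 1.66% and 1.47%, endothelium-like 1.74% and 0.941%, neurogenic progenitor-like 0.802% and 0.686%, and retinal progenitor-like 0.630% and 0.638%. Erythroid-like cells had 0.0421% and 0.0993%.

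**Figure D5:**
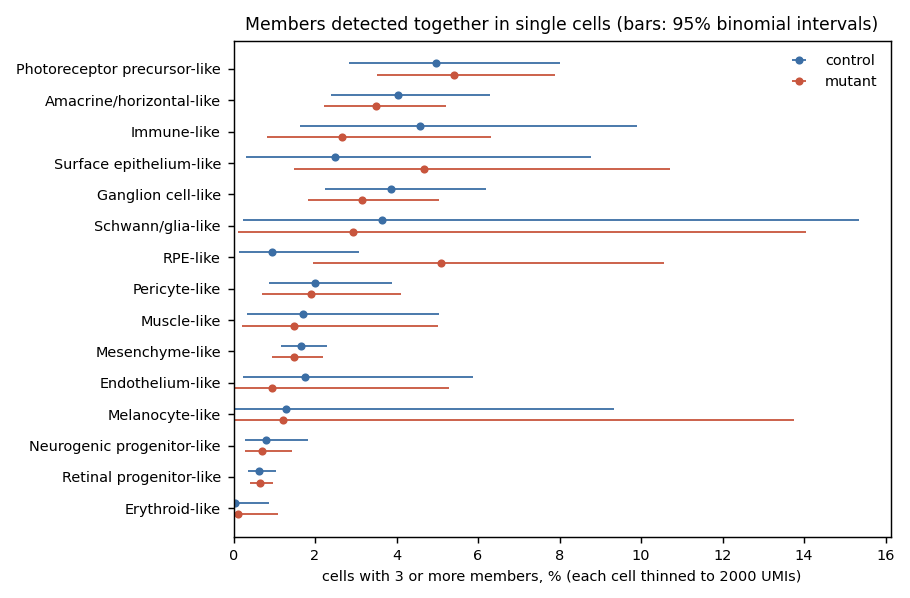
Percent of cells with at least 3 of the 10 genes after thinning to 2000 UMIs (x axis, linear) by class, ordered by the mean of both libraries; blue is control, red mutant, bars are 95% binomial intervals. RPE-like cells have 0.931% and 5.10%, photoreceptor precursor-like cells 4.97% and 5.41%, and the progenitor classes under 1% in both libraries.

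Within classes and libraries, thinned cells with a Cdkn1a UMI held 0.791 of the other 9 genes per cell, and matched cells without one held 0.612, a difference of 0.178 (0.0790 to 0.288) over a mean of 288 cells. RPE-like cells, on which the genes were chosen, are among the cells counted. The same difference was 0.0850 (0.0199 to 0.155) for Ccng1 and 0.0731 (0.00341 to 0.148) for Zmat3, and that of Eda2r was 0.360 (0.00284 to 0.845) from a mean of 24.9 cells. For Phlda3, Mdm2, Sesn1, Bbc3, Trp53inp1 and Bax it was between 0.0115 and 0.0507. When the 5 cells of each class and library richest in UMIs of the 10 genes were left out, the Cdkn1a difference was 0.0692, with an interval that spans 0.

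Of the 45 pairs of genes over all classes and the unnamed clusters, 4 were found together in more cells than depth and class alone give, by an interval above 1, and 0 in fewer. Cdkn1a and Eda2r shared 19 cells where 5.53 would be given, Cdkn1a and Ccng1 270 where 236 would, a ratio of 1.14 (1.01 to 1.29), and Cdkn1a and Zmat3 had 1.154 (1.01 to 1.31). Over the same cells without the RPE-like class, 44 pairs had a reference of at least 5 cells, and of these only Eda2r and Trp53inp1 had an interval above 1, at 1.43. The pair left out by that limit was Cdkn1a and Eda2r, found together in 15 cells outside the RPE-like class where 4.72 would be given, a ratio of 3.18 (1.78 to 5.24). Within mutant RPE-like cells alone, 29 pairs reached that reference and 0 had an interval off 1, with a median ratio of 1.06. Cdkn1a and Eda2r, below it, shared 4 of these cells where 0.781 would be given, a ratio of 5.12 (1.39 to 13.1). These counts use presence of a UMI and not its number.

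Other genes of the pathway were taken from lists. Of 48 other p53 targets, 36 had at least 20 UMIs in RPE-like cells. Their median log2 ratio was 0.14, with 8 at least 1.5-fold higher in the mutant and 3 lower, against the 5.03% and 8.68% given above. The most abundant were Rps27l, a ribosomal protein paralogue, at 451 and 654 CPM (ratio 1.45), Gpx1, a glutathione peroxidase (1.04), Ei24 (0.775) and Ptp4a3 (1.07). In retinal progenitor-like cells the median of this list was -0.00, in neurons -0.03, in mesenchyme-like cells 0.06 and in endothelium-like cells -0.00.

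Of 18 regulators of p53, 14 could be read in RPE-like cells, with 0 higher and 2 lower, against 5.03% and 8.68% of all genes, and a median of -0.08. Trp53, which encodes p53, had 263 and 98 UMIs, 68.3 and 51.1 CPM, a ratio of 0.748 (0.587 to 0.947). Bcl2 family and caspase genes outside the set had a median of 0.02 over 20 genes, with 1 higher and 2 lower. Counts of this size are near the shares of all genes. Integrated stress response genes had a median of 0.10 over 10, with 3 higher and 0 lower. The 3 were Gdf15, which is also among the p53 targets, at a ratio of 16.7 (5.11 to 86.6), and Asns and Sesn2, at 2.01 and 1.90, with intervals that span 1. S phase genes had a median of -0.20 over 15, with 0 higher and 1 lower, G2 and mitosis genes -0.09 over 15, with 0 and 0, and dissociation stress genes -0.22 over 6, with 1 and 1. Among the Cip/Kip inhibitors and D cyclins, Ccnd1, which drives entry into the cycle, was at 150 and 324 CPM (ratio 2.15), and Cdkn1c, a relative of Cdkn1a, had a ratio of 0.948.

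Between mutant RPE-like cells with and without Cdkn1a, the other p53 targets summed to 3228 and 1671 CPM, a ratio of 1.93 (1.78 to 2.10), where the control RPE-like ratio was 1.29 (1.11 to 1.48). In ganglion cell-like cells this ratio was below 1, at 0.859 (0.812 to 0.908) in the control and 0.935 (0.896 to 0.976) in the mutant. In mutant RPE-like cells the regulators gave 0.994 (0.928 to 1.06), the Bcl2 family and caspases 1.08 (0.943 to 1.23), the integrated stress response genes 0.781 (0.677 to 0.898), dissociation stress genes 1.47 (1.17 to 1.82), S phase genes 0.865 (0.709 to 1.05), G2 and mitosis genes 1.28 (1.18 to 1.39) and the Cip/Kip inhibitors and D cyclins 1.46 (1.30 to 1.64). In control RPE-like cells the last ratio was 1.06 (0.858 to 1.29) and that of dissociation stress genes 1.40 (1.03 to 1.86). Each ratio is of summed UMIs, so abundant genes of a list weigh most. The regulators include the ribosomal protein genes Rpl5 and Rpl11, and their sums, 4204 and 4230 CPM, do not speak for scarcer regulators. All mutant list ratios keep the richest cell, which held 24 UMIs of Top2a and 7 of Mki67, both G2 and mitosis genes. The part of dissociation stress in the Cdkn1a cells was not tested.

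By the summed level of the 10 genes over 27 class-by-library points, the most similar genes of 11159 were Mrpl48, Csnk2b, Ufc1, Exosc4 and Ndufs3, with r between 0.970 and 0.973. Much of that rests on the 2 erythroid-like points, since without them the r of these genes was 0.610 to 0.682, and Hist3h2a headed the list at 0.816. By cells, the genes most raised in the 282 cells with at least 3 of the 10 genes were Ccl12 (ratio 4.10), Spp1 (2.30), Krt15 (2.19), Nbl1 (2.08), Vax2os (2.07), Penk (2.06), AW549877 (2.04), Osbpl9 (2.04), Ttr (2.02) and Stab1 (2.01), with a median of 1.03 over 3287 genes. The list of other p53 targets stood at 1.03 in that comparison.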

How the data were processed

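Droplet single-cell RNA libraries of 1 control and 1 mutant pool of 3 eye cups were analysed. Per barcode and gene, the files hold raw UMI counts as deposited by the authors; Cell Ranger 7.1.0, Seurat 4.1.1 and mm10 are named in the submitters' processing notes, and the matrix header names software version 3.1.0. Barcodes with at least 200 genes and at most 15% mitochondrial UMIs were kept. The study also states that counts over 2000 were treated as doublets; that limit would remove most barcodes (79.1% of control and 80.6% of mutant barcodes exceed it), so it was run as an alternative only. Doublets were called by a Scrublet score over 0.2, set after the scores were seen because the automatic threshold called 366 control and 0 mutant barcodes; 0.2 called 366 (3.06%) and 395 (3.03%).

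Counts scaled to 10000 per cell were clustered on 1851 of 2000 variable genes (the 10 genes and all naming markers left out), with 30 principal components, 15 neighbours and Leiden resolution 1.0. Clusters were called X-like from marker lists, with score limits set after the data were seen; 8 of 33 stayed unnamed and held 27.1% of control and 25.4% of mutant cells, at medians of 1539.5 and 1468 UMIs. Rebuilt names may differ from the study's.

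Levels are UMIs summed per class and library over all UMIs of that class, in CPM. Intervals are 95% exact Poisson for sums, conditional binomial for ratios and Clopper-Pearson for shares. Depth was 132436812 control and 135678970 mutant UMIs over 13017 and 13880 barcodes. Genes counted as 1.5-fold changed had at least 20 UMIs. Shares after thinning are means over 100 draws, or 20 for differences. The number of cells holding several genes together was set beside the number given if each gene's chance in a cell followed its depth alone. All 10 genes are named. From each other list at most 4 genes with the most UMIs are named, and the 5 or 10 genes most like the set by class or by cell. Others, such as Gdf15, Sulf2, Ckap2, Asns and Sesn2, were named for their rank or ratio after the values were seen.

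The genes and lists were chosen with earlier results of these data known. The calculations were tested on simulated data with known answers. Alternatives were other filters, clusterings, depths and cell subsets. Software was Python 3.11.15, numpy 2.4.6, scipy 1.17.1, pandas 2.3.3, scanpy 1.11.5, igraph 0.11.9 and matplotlib 3.10.9. Gene positions came from GENCODE vM21 and start-site sequence from RefSeq, where 8 of 10 genes matched.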

Additional observations from a re-analysis of the deposited data

Results flagged for a closer look

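Y-linked transcripts, which are outside the 10 genes and serve here only to pick cells, were found in 41.8% (40.9 to 42.6) of kept mutant cells and in 0.0259% of kept control cells. Xist was found in 27.5% of mutant and 71.7% of control cells. Genotype and the sex of the pooled embryos cannot be told apart over all cells. Values among cells that had Xist but no Y-linked UMI stand beside the RPE-like results.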

How the results depend on the processing

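No paired analysis was possible because each genotype is 1 library, and for the same reason no replicate could be left out. The log2 ratio of the summed level of the 10 genes in RPE-like cells was 0.43. It was 0.79 at a mitochondrial limit of 5%, 0.61 among cells that had Xist but no Y-linked UMI, 0.63 with cells over 2000 UMIs removed, 0.19 without the 5 richest cells of each class and library, and 0.97 without Bax, the last chosen after seeing the data. The share of RPE-like cells with at least 3 of the genes depends on depth by construction: thinned to 1000 UMIs it was 1.35% in the mutant and 0.134% in the control, and thinned to 4000 UMIs 12.3% and 5.09%. The mean difference in other genes per cell between cells with and without Cdkn1a, 0.178, was 0.0692 without the 5 richest cells. The cause was not tested.

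The other 38 values stayed within the counting interval of the value reported, no value whose interval lay off 0 changed sign, and the median log2 ratio of the genes ranged from 0.27 to 0.98, apart from 0.22 with cells over 2000 UMIs removed, where a single gene could be read. For single genes, alternatives that were applied to each after seeing the data moved 10 of 77 values. Cdkn1a ranged from 4.02 to 5.96 on the log2 scale, Ccng1 from 0.98 to 2.30, Phlda3 from 0.51 to 1.38, Mdm2 from -0.05 to 0.61, Sesn1 from 0.28 to 1.51, Bbc3 from 0.13 to 1.18, Zmat3 from 0.15 to 1.21, Trp53inp1 from 0.06 to 3.14, Eda2r from 0.88 to 4.08 and Bax from -0.02 to 0.27. The intervals of Phlda3 at Leiden resolution 2.0 and of Eda2r there and without the 5 richest cells spanned 0. Intervals that spanned 0 lay above it for Zmat3 at resolution 2.0 (1.21), for Trp53inp1 at the 5% mitochondrial limit (3.14) and among cells that had Xist but no Y-linked UMI (1.04), for Sesn1 in RPE-like cells without UMIs of 6 other-class genes (1.51) and without the deepest cells (1.03), and for Bax at the 5% limit (0.27). At Leiden resolution 2.0, 1 shallower RPE-like cluster (238 control and 146 mutant cells) kept its name. With 1 library per genotype, depth limits Eda2r (8 UMIs in RPE-like cells) most.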

Other observations

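Barcodes that the filters left out held the same genes. Those over the mitochondrial limit had 268 CPM (control) and 247 CPM (mutant) of the 10 genes together, with Cdkn1a at 2.57 and 5.14 CPM, and called doublets had 366 and 371 CPM, with Cdkn1a at 3.67 and 9.02 CPM. Among left-out barcodes with at least 20 Pmel UMIs, 26 control and 11 mutant, Cdkn1a had 0 and 1 UMIs. Clusters that stayed unnamed had 347 and 328 CPM of the 10 genes, and their Cdkn1a ratio of mutant to control was 1.97 (1.37 to 2.86).

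In surface epithelium-like cells Cdkn1a was at 16.2 CPM in 84 control cells and 29.0 CPM in 111 mutant cells, a ratio of 1.79 (1.09 to 3.02), and the 10 genes summed to 447 and 502 CPM. Immune-like cells were lower in the mutant for Cdkn1a, at a ratio of 0.752, and for Sesn1, at 0.774. A Cdkn1a count of at least 10 was found in 23 cells over both libraries, and muscle-like cells reached 25 Cdkn1a UMIs with 0 of Ccng1 and Phlda3.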
